A study of Mus musculus with 2 samples.

Results

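The collagen genes described here are the 44 genes whose symbols are written Col, a number, a, and a number, out of 35163 genes counted in single myofibers from a small fast muscle of the mouse hind foot, the flexor digitorum brevis (FDB). They were chosen by name alone and not by their levels, and 36 of them held at least 200 unique molecular identifiers (UMIs, tags that mark single captured transcripts) over the fibers kept. All fibers are labeled as from untreated C57BL/6J mice more than 3 months old, from muscle dissociated with collagenase, and were placed one by one into the wells of 8 plates after large-particle sorting. The study's methods describe male mice of both C57BL/6J and DBA2 background, and the labels tie neither sample to DBA2. The 2 deposited samples are 2 sequencing lanes of the same kind of muscle, with plates 705 to 708 in lane 1 and plates 709 to 712 in lane 2. The labels name no separate animals, so a plate or a lane is not a replicate animal, no test between animals was possible, and the intervals given below cover counting error only. Of 763 cells, 171 had more than 5000 genes and less than 20% mitochondrial counts and were kept, and the remaining 592 are treated at the end. The table names 168 of the kept cells whole and 3 as fragments, which came from muscle cut before digestion.

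Collagens are triple helices of 3 chains that cells outside the fiber are best known for laying down in muscle. Fibroblasts make the fibril-forming types I, III and V of the interstitium, type IV forms the network of the basement membrane that wraps each fiber, type VI forms beaded filaments at its surface, and the fibril-associated types XII, XIV and XXII decorate fibrils, with type XXII known from the myotendinous junction. The transmembrane types XIII, XXIII and XXV sit in the membrane of the cell that makes them, where type XIII is known at the neuromuscular junction and type XXV for its part in motor innervation of muscle. A collagen transcript counted in a well can come from the fiber, from a cell that stayed attached to it or from free RNA, and the counts alone do not name the source.

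The 171 fibers held 51923865 UMIs, with a median of 239581 per fiber and a range from 28827 to 1542996. Lane 1 held 88 fibers and 25021256 UMIs, and lane 2 held 83 fibers and 26902609 UMIs, and none of the 763 cell barcodes was shared between lanes. Classed by the most abundant of Myh1, Myh2, Myh4, Myh7 and Myh8, 117 fibers were fast 2X, 51 fast 2A, 2 slow and 1 fast 2B. Every fiber carried the myofiber markers, since 15 of 15 marker genes were detected and Ttn, which encodes the giant sarcomere protein titin, was found in 171 of 171 fibers. Genes of other organs set the floor for reading a low level, and 14 such genes lay between 0.0193 and 3.02 CPM (counts in 1000000 UMIs), with Alb of the liver in 12.9% of fibers and the sperm gene Prm1, the highest of them, in 36.3%. The median of these 14 genes was 0.481 CPM. Of the 44 collagen genes, 39 lay above the level of Prm1. The lowest of the 39, Col6a5, ranked 13705th of 35163 genes, so a large share of all genes lay above that level too.

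The collagen genes together gave 61502 UMIs, or 1184 CPM of the summed counts, which is 0.118% of all UMIs. Single fibers ranged from 439 to 5991 CPM with a median of 1180, and by plate the sum was 1160, 1160, 1246, 775, 1221, 1396, 1314 and 1359 CPM for plates 705 to 712. Plate 708 alone lay apart, below the other plates. A median of 28 different collagen genes was seen per fiber, with a range from 7 to 42. At least 1 UMI was found in 50% or more of the fibers for 32 of the 44 genes, against 32.5% of all genes in the table. That count follows depth, because after thinning every fiber to 28827 UMIs it was 9 of 44, against 12.3% of all genes, and the median fiber then showed 12 collagens.

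A pair of fibril-associated collagens gave the most collagen UMIs. Col14a1, the chain of type XIV collagen, stood at 460 CPM (95% Poisson limits 455 to 466) and alone gave 38.9% of the collagen UMIs. It ranked 210th among all genes and was found in 100% of fibers, and still in 98.2% after thinning, with a fiber minimum of 34.5, a median of 467 and a maximum of 1624 CPM. Col22a1, the chain of type XXII collagen, followed at 102 CPM (99.3 to 105), gave 8.61% of the collagen UMIs and was found in 169 of 171 fibers, with a fiber median of 91.9 and a maximum of 283 CPM. Both lie on chromosome 15 in GRCm38, Col14a1 at chr15:55307750-55520803 on the plus strand and Col22a1 at chr15:71795795-72034227 on the minus strand. Their lanes behaved differently, since Col22a1 stood at 104 CPM in lane 1 and 100 in lane 2 while Col14a1 stood at 318 and 593. With 9 genes and 638.6 CPM the fibril-associated class held the most collagen UMIs, and of its other members Col19a1 stood at 45.0, Col9a1 at 11.8, Col20a1 at 7.76, Col12a1 at 4.70 and Col16a1 at 3.91 CPM.

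The fibril-forming class held 11 genes and 165.8 CPM, but the chains of types I and III that dominate the interstitium gave 1728 of its 8611 UMIs. Col3a1 stood at 14.9 CPM (13.9 to 16.0), Col1a2 at 12.2 (11.2 to 13.1) and Col1a1 at 6.24 (5.58 to 6.96). They were seen in 99, 103 and 76 of 171 fibers, and after thinning in 16.4%, 19.9% and 13.5%, against 2.34% for Alb. Col24a1 at 45.9 CPM and Col11a2 at 42.5 CPM gave more UMIs than the other fibril-forming genes, and stood highest of them per exon length too. They were found in 92.4% and 95.3% of fibers, and both are better known from cartilage and bone than from muscle. The type V chains Col5a2, Col5a3 and Col5a1, which start type I fibrils, stood at 13.0, 10.9 and 9.23 CPM. Col2a1, the main collagen of cartilage, had 14 UMIs in all fibers together and lay below the other-organ floor.

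Of the ubiquitous type IV pair, Col4a2 stood at 46.9 and Col4a1 at 28.0 CPM. The chains of more restricted basement membranes followed with Col4a3 at 17.4, Col4a5 at 12.4 and Col4a4 at 10.4 CPM. Col4a1 and Col4a2 are divergent neighbors on chromosome 8, and their gene bodies overlap by a few bases at their starts (Col4a1 chr8:11198423-11312826, minus strand, and Col4a2 chr8:11312805-11449287, plus strand, GRCm38). Col4a1 is also overlapped by the antisense gene Gm15418, which had 282 UMIs. The study names the counting program zUMIs at default settings and does not state strand use. Of the beaded-filament class, Col6a3 stood at 26.4, Col6a2 at 9.28, Col6a4 at 7.99 and Col6a6 at 6.36 CPM, while Col6a1, an obligate partner of Col6a2 and Col6a3 in type VI collagen, had 177 UMIs. Per kilobase of exon, Col6a1 stood at 0.778, Col6a2 at 1.11 and Col6a3 at 2.21 CPM. These partner chains were thus not counted at like levels by CPM or by exon length. Their gene bodies span 17.4, 27.9 and 78.0 kb, and levels per kb of gene body are not given here.

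The 4 transmembrane collagens gave 108.1 CPM, with Col25a1 at 43.7, Col23a1 at 38.5, Col13a1 at 19.6 and Col17a1, of the hemidesmosome, at 6.43 CPM. Col7a1, the anchoring-fibril chain best known from skin, stood at 29.9 CPM in 85.4% of fibers. The multiplexins of basement membrane zones were Col18a1 at 26.7 and Col15a1 at 4.31 CPM, and the unclassed Col26a1 stood at 20.4 CPM. A UMI marks a single captured transcript whatever its length, so levels are read here by CPM. Values divided by exon length are given only for reference. Per kilobase of exon sequence the order was Col14a1 at 65.7 CPM per kb, Col22a1 at 11.1, Col4a2 at 7.09, Col23a1 at 6.71, Col19a1 at 6.54, Col11a2 at 6.18 and Col24a1 at 6.02. Col3a1 reached 1.52, Col1a2 0.978 and Col1a1 0.951 CPM per kb. By CPM, and relative to exon length as well, the common interstitial chains lay far below Col14a1 and Col22a1, and below several minor collagens. Gene bodies span 213 kb for Col14a1, 238 for Col22a1 and 294 for Col23a1, against 38.2 for Col3a1, 36.7 for Col1a2 and 16.8 for Col1a1. Levels per kb of gene body, which would matter if intron reads were counted, are not given here.

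**Figure D1:**
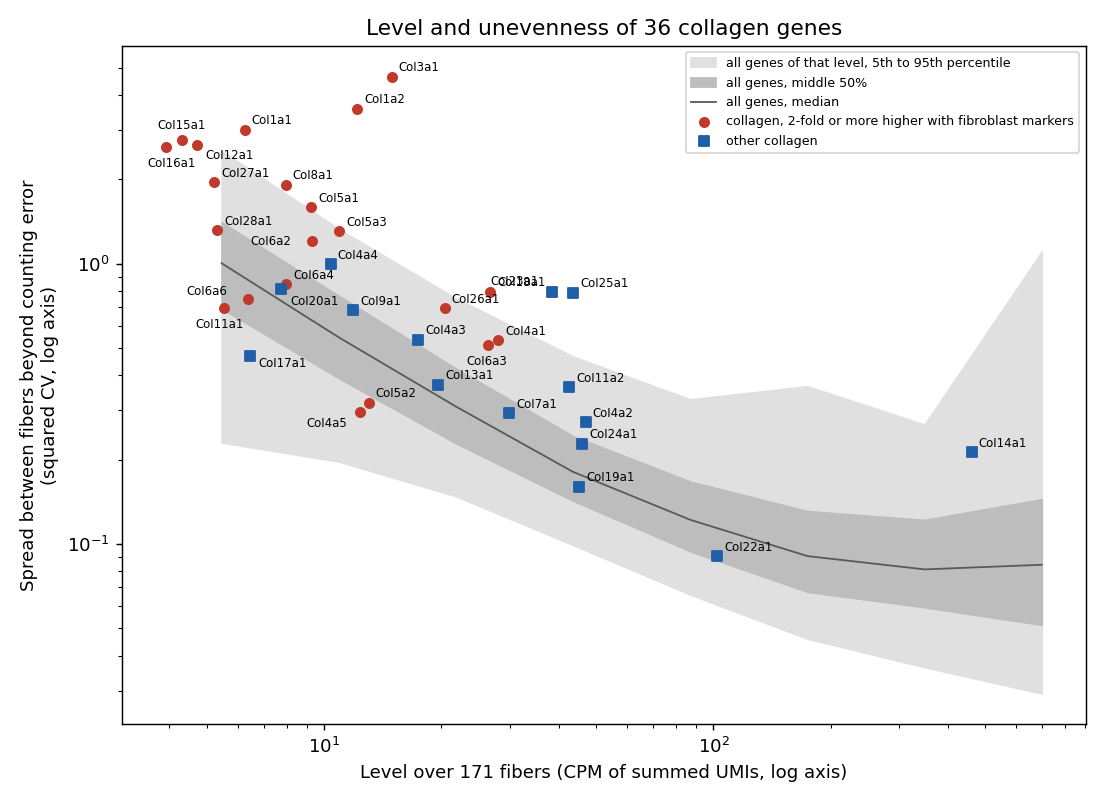
Level over 171 fibers (x axis, CPM of summed UMIs, log axis) against the spread between fibers beyond counting error (y axis, squared coefficient of variation, log axis) for the 36 collagen genes with at least 200 UMIs, over gray percentile bands of all genes of like level. Red circles mark genes at least 2-fold higher in the fibers with the most fibroblast marker UMIs and blue squares the others, and Col14a1 and Col22a1 lie at the lower right with 460 and 102 CPM while Col3a1 lies at the top with a spread of 4.64.

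How evenly a collagen was shared among fibers was measured by the squared coefficient of variation between fibers that remains after the part expected from counting is taken away, where 0 means that each fiber has the same share of its UMIs. Genes at 1 or more were called uneven and genes at 0.25 or less even. By these bounds 12 of 36 collagens were uneven, against 15.5% of all genes with at least 200 UMIs, and 4 of 36 were even, against 37.4%. The median spread was 0.768 for the collagens and 0.357 for all genes. The even collagens were Col22a1 at 0.0903, Col19a1 at 0.160, Col14a1 at 0.212 and Col24a1 at 0.228. For comparison, Ttn had 0.0942. The uneven collagens were Col3a1 at 4.64, Col1a2 at 3.57, Col1a1 at 3.01, Col15a1 at 2.76, Col12a1 at 2.66, Col16a1 at 2.61, Col27a1 at 1.95, Col8a1 at 1.91, Col5a1 at 1.59, Col28a1 at 1.32, Col5a3 at 1.30 and Col6a2 at 1.21. All chains of types I and III were in the uneven group and none of the transmembrane, anchoring or network IV chains was, although Col4a4 at 0.998 lay just under the bound. After thinning the counts were 26 uneven, against 41.9% of all genes, and 1 even, against 19.6%.

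The spread falls with the level of a gene over the whole table, from a median of 1.00 among genes of 200 to 400 UMIs to 0.0812 among genes of 12800 to 25600 UMIs, so each collagen was also read against genes of its own level. Of the 36, 28 lay above the median of their level and 11, or 30.6%, lay above its 95th percentile, a bound that 5% of genes pass by construction. Those 11 were Col3a1, Col1a2, Col1a1, Col5a1, Col8a1, Col12a1, Col15a1, Col16a1, Col18a1, Col23a1 and Col25a1. Col22a1, Col5a2, Col4a5 and Col17a1 lay at or below the lower quartile. Col14a1 was even by the fixed bound and yet lay above the upper quartile of its level, which was 0.122, with a spread of 0.164 within lane 1 and 0.0902 within lane 2. Of the 4 even collagens, Col22a1 and Col19a1 lay below the median of their level and Col14a1 and Col24a1 above it.

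**Figure D2:**
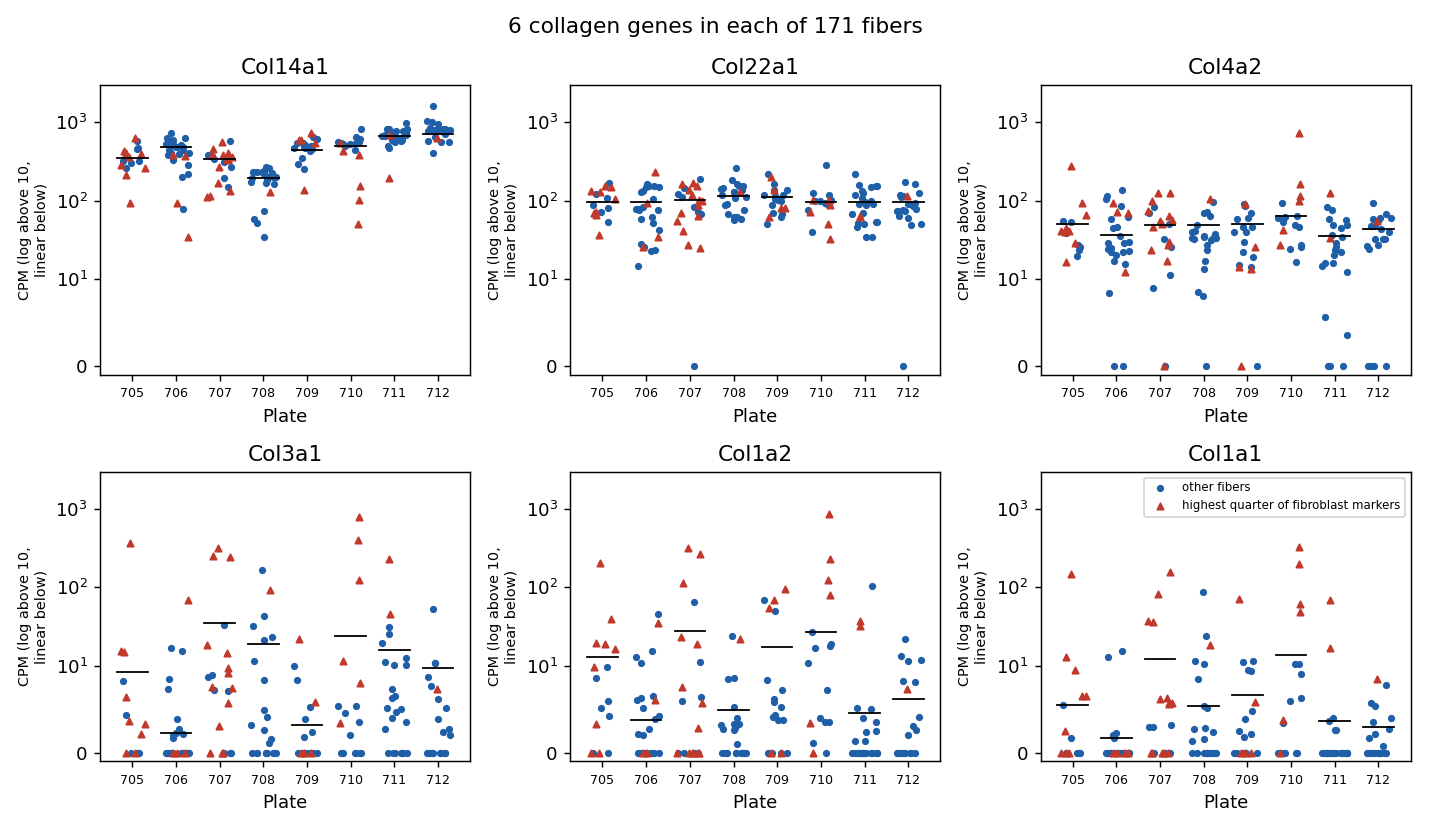
Each of the 171 fibers by plate (x axis) for 6 collagen genes, as CPM of the fiber (y axis, linear up to 10 and logarithmic above). Black bars give the CPM of the plate's summed UMIs and red triangles mark the 42 marker-high fibers, those with the most RNA of the fibroblast list without Gpx3. Col14a1 and Col22a1 form dense bands on every plate, while Col3a1, Col1a2 and Col1a1 have many fibers at 0 and a few far above the bars.

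The chains of types I and III were concentrated in few fibers. Their sum, 1728 UMIs or 33.3 CPM, was 0 in 33 fibers, had a fiber median of 10.5 CPM and reached 1980 CPM, and the 18 fibers with the most of these UMIs held 69.0% of them. The fiber at 1980 CPM was a fast 2X fiber on plate 710 with 39394 UMIs, of which 13 were Col1a1, 34 Col1a2 and 31 Col3a1, and 4 Col14a1. It carried 173 UMIs of the fibroblast list without Gpx3 (defined next), 66 of them of Dcn, the fibroblast proteoglycan decorin, but also 108 UMIs of endothelial and 483 of smooth muscle and pericyte markers. The only fast 2B fiber, on plate 707 with 257020 UMIs, had 21, 81 and 81 UMIs of the same chains and 386 of Dcn, and no fiber held more UMIs of Col1a2, Col12a1, Col15a1, Col16a1, Col18a1 or Col20a1. A fast 2X fiber on plate 710 with 627777 UMIs likewise held the most UMIs of Col1a1, Col4a1, Col5a1, Col6a2 and Col8a1, and shared the highest count of Col6a4, 22, with 1 other fiber. A fragment on plate 710 with 124414 UMIs held the most of Col27a1, and shared the highest count of Col5a3, 37, with the fiber of 627777 UMIs. The leaders of many uneven collagens were thus a handful of fibers shared between genes, and the 5 fibers leading that list held 23.7% of the UMIs of the type I and III chains with 0.984% of all UMIs. The same 5 fibers held 8.28% of the UMIs of Col6a1, Col6a2 and Col6a3, 5.17% of those of Col4a1 and Col4a2, 0.434% of those of Col22a1 and 0.293% of those of Col14a1.

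To set collagens beside RNA of attached fibroblasts, fibers were ordered by the summed share of 20 fibroblast marker genes, which include no collagen. Gpx3 gave 54.7% of the UMIs of that list and had a spread between fibers of only 0.260, so the order was also taken from the other 19 genes. With the whole list, 23 of 40 collagens with at least 100 UMIs were at least 2-fold higher in the 42 fibers with the most marker RNA (marker-high) than in the 43 with the least (marker-low), with limits excluding equality, against 21.6% of all genes, and none was 2-fold lower, against 0.613%. Without Gpx3 the count was 25 of 40, against 26.7% of all genes, again with none lower, against 0.512%. The median log2 ratio was 1.26 for the collagens and 0.36 for all genes, and 38 of 40 collagens lay above 0. The groups differed in class, with 6 of 42 marker-high and 20 of 43 marker-low fibers being fast 2A by the whole list, and 11 and 16 without Gpx3. More than the collagens moved with this order, and the marker-high and marker-low fibers had 361 and 35.4 CPM of the 19 markers.

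Other lists moved with the same groups. All 13 endothelial markers were detected and summed to 49.9 to 3170 CPM in marker-high fibers against 32.7 to 249 in marker-low fibers. For the Schwann cell list, with 9 of 10 genes detected and Foxd3 at 0, the ranges were 0 to 3680 and 0 to 115 CPM, and for the 14 other-organ genes 0 to 96.5 and 0 to 91.9 CPM with summed levels of 19.0 and 4.76. The summed levels in marker-high and marker-low fibers were 75.7 and 33.1 CPM for 9 tenocyte markers, 43.6 and 23.5 for 10 macrophage markers, and 424 and 310 for 12 smooth muscle and pericyte markers, of which single marker-high fibers held up to 12261 CPM. The 15 myofiber markers ran the other way, with 29087 to 170676 CPM in marker-high fibers and 126820 to 210246 in marker-low fibers. The part of each of these cells or of free RNA in the collagen ratios was not tested.

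Taking the list without Gpx3, the type I and III chains had the largest ratios among collagens with at least 200 UMIs. Col3a1 stood at 46.4 CPM in marker-high and 3.02 in marker-low fibers (15.4-fold), Col1a1 at 19.3 and 1.55 (12.4-fold), and Col1a2 at 37.6 and 3.20 (11.7-fold). Fibers of the groups overlapped all the same, since Col3a1 ran from 0 to 787 CPM in marker-high fibers and from 0 to 19.4 in marker-low fibers, with medians of 7.45 and 0. Col27a1 followed at 8.52-fold, Col8a1 at 5.11-fold, Col5a3 at 3.81-fold, Col15a1 at 3.57-fold, Col28a1 at 3.40-fold and Col11a1 at 3.39-fold. Of the network and filament chains Col4a1 was 2.51-fold, Col6a2 2.60-fold and Col6a3 2.29-fold higher, and Col4a2, at 1.81-fold, was not called. Col14a1 went slightly the other way, with 370 CPM in marker-high and 418 in marker-low fibers (0.886-fold), although fibroblasts are a known source of type XIV collagen. Col22a1 stood at 99.5 and 99.6 CPM (0.999-fold), Col7a1 at 1.01-fold and Col24a1 at 1.08-fold.

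**Figure D3:**
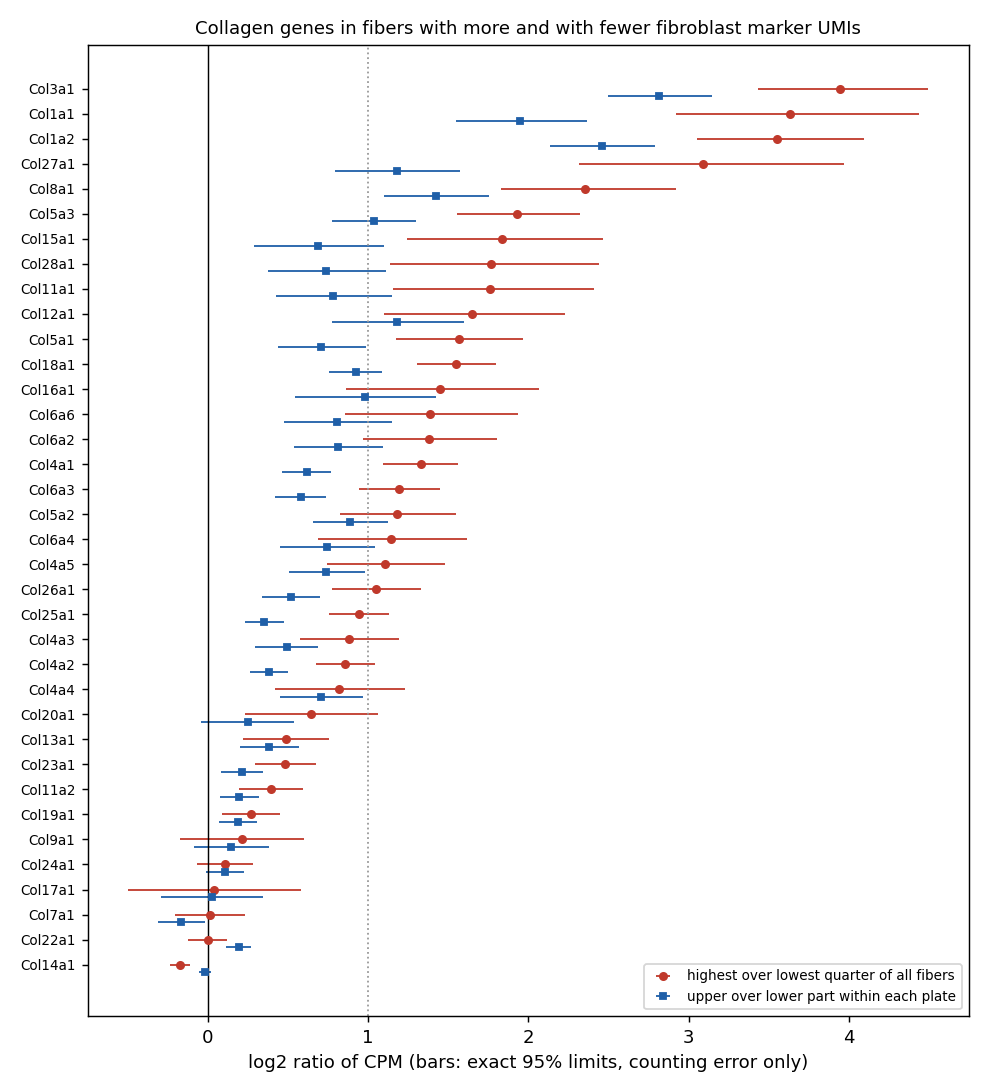
Log2 ratio (x axis) of each of the 36 collagen genes with at least 200 UMIs (y axis) in fibers with more over fibers with fewer fibroblast marker UMIs, for the list without Gpx3. Red circles compare marker-high with marker-low fibers and blue squares the upper with the lower part of each plate, with 95% limits from counting. Col3a1, Col1a2 and Col1a1 lie farthest right by both measures, with within-plate ratios of 2.81, 2.46 and 1.95, and Col14a1 and Col22a1 lie near 0.

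In marker-low fibers, Col3a1 kept 20.3% of its level over all fibers, Col1a1 24.9% and Col1a2 and Col27a1 each 26.3%. Col8a1 kept 40.2%, Col6a3 63.8% and Col4a2 73.9%. By contrast Col14a1 kept 90.8%, Col22a1 97.6%, Col24a1 101% and Col7a1 104%. Setting both measures side by side, the 12 uneven collagens were all among those called higher and gave 7.94% of the collagen UMIs. The 4 even ones were not called and gave 55.2%, and of the 20 between, 9 were called with 12.4% of the UMIs and 11 were not with 23.2%. Both measures come from the same counts, so this is a description and neither supports the other. The shares of all uneven, even and middle genes that were called are not given here. The counts are therefore not read as a trait of the collagens. Among the 11 uncalled genes of middle spread were Col25a1 (1.92-fold, just under the bound), Col23a1 (1.40-fold), Col11a2 (1.31-fold), Col9a1 (1.16-fold) and Col7a1 (1.01-fold). These genes turn up again below in the comparison of fiber classes.

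Plates differed in their share of high fibers, since plate 707 held 14 marker-high and 0 marker-low fibers, and plate 708 held 1 and 10. The comparison was therefore repeated between the upper and the lower part of each plate, with 83 and 88 fibers. Then 9 of 40 collagens were at least 2-fold higher, against 7.64% of all genes, and the median log2 ratio was 0.70 for the collagens and 0.19 for all genes. The 9 were Col3a1 (7.02-fold), Col1a2 (5.49-fold), Col1a1 and Col6a1 (each 3.85-fold), Col8a1 (2.68-fold), Col4a6 (2.56-fold), Col27a1 and Col12a1 (each 2.27-fold) and Col5a3 (2.05-fold). Col3a1, Col1a2, Col5a2, Col5a3, Col11a1 and Col4a6 were higher in the upper part on 8 of 8 plates. The share of all genes higher on 8 of 8 plates is not given here, so this is not read as a trait of the collagens. Col14a1 had a log2 ratio of -0.02 and was higher on 1 of 8 plates, Col22a1 had 0.19 on 4 of 8, and Col17a1 had 0.03 on 2 of 8. The fibril-forming chains of types I and III thus moved with the fibroblast markers within plates as well as between them, at smaller folds.

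The promoter of Col3a1 is shown because no other collagen was spread so unevenly over the fibers. It is the 250 bases before the RefSeq start on the plus strand (GRCm38.p6, chr1:45311288-45311537), where the gene itself spans chr1:45311538-45349706, with the CCAAT box, the TATAAA box, the E-box letters CANNTG and the GC box GGGCGG in capitals wherever they occur on either strand.

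Col3a1: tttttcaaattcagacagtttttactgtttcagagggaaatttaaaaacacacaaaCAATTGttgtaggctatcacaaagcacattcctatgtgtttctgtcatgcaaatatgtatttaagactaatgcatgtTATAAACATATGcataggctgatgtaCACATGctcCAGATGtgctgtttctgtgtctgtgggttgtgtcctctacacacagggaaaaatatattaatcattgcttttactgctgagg

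It holds a TATAAA 117 bases before the start and 4 CANNTG, the nearest of them 82 bases before it, and the TATAAA runs into a CANNTG within one stretch of capitals. Among 32851 RefSeq promoters of this length, 12.4% hold a TATAAA and 66.2% a CANNTG. Of the 35 collagens with a promoter in that table, 5 (14.3%) and 19 (54.3%) hold them. These are matches of letters and not shown sites.

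Chains that are joined in one protein were set side by side in each fiber as a description. Over the 171 fibers, which share libraries and differ in depth, the rank correlation of CPM was 0.36 for Col1a1 with Col1a2, 0.39 for Col1a1 with Col3a1, 0.29 for Col4a1 with Col4a2 and 0.27 for Col6a1 with Col6a3. It was -0.19 for Col3a1 with Col14a1 and 0.01 for Col22a1 with Col14a1. Summed over fibers Col1a1 had 0.513 UMIs for each of Col1a2, where the protein takes 2 chains of the first for 1 of the second. At least 2 UMIs were found in 60 fibers for Col3a1, 59 for Col1a2, 47 for Col1a1 and 26 for Col6a1, against 131 for Col4a1 and 147 for Col4a2.

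The genes most like each collagen group were named by the rank correlation of their CPM over the 171 fibers among 8727 genes with at least 500 UMIs. For the sum of Col1a1, Col1a2 and Col3a1 they were Gsn at 0.52, the secreted Fstl1 at 0.48, Grk5 at 0.46, and Pds5b and Myo1d at 0.44. For Col4a1 with Col4a2 they were Apbb2 at 0.48, and Wwox, Shank3 and Sparc, the last a collagen-binding matrix protein, at 0.42. Dlc1 followed at 0.41. For the type VI sum they were Cngb1 at 0.47, Lrmda and Xpo7 at 0.46, and Ccdc57 and Tenm2 at 0.43, and for Col15a1 with Col18a1 they were Lrrc8d at 0.53, Thsd4 at 0.52, Dcdc2a and Ccser1 at 0.50 and Gm28905 at 0.49. The values for the even Col22a1 were lower, with Gpam at 0.32, Nudt8 and Gm28376 at 0.31, Ppip5k1 at 0.30 and Ubtf at 0.29.

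Over plates, 30 of 36 collagens had a highest plate at least 2-fold above the lowest, against 63.3% of all genes, with a median range of 3.56-fold for the collagens and 2.32-fold for all genes. Col14a1 stood at 346, 479, 338, 193, 445, 504, 670 and 714 CPM on plates 705 to 712, a 3.69-fold range with plates 711 and 712 highest and 708 lowest. Col22a1 stood at 96.2, 96.6, 102, 113, 112, 97.2, 97.1 and 95.02 CPM on the same plates, a 1.19-fold range. The 2 most abundant collagens therefore differed in how they varied between plates, and plate 708, lowest for the one, was highest for the other. Besides Col22a1, the collagens that stayed under 2-fold were Col4a5 at 1.40, Col19a1 at 1.59, Col7a1 at 1.75, Col4a2 at 1.80 and Col4a4 at 1.95. The widest ranges were those of Col3a1, from 2.23 CPM on plate 706 to 34.8 on plate 707 (15.6-fold), Col5a3 (10.9-fold), Col27a1 (10.5-fold), Col1a1 (7.95-fold), Col8a1 (7.75-fold) and Col1a2 (7.43-fold). The fibroblast list without Gpx3 stood at 171, 72.2, 399, 64.2, 113, 191, 79.9 and 91.9 CPM on the plates in the same order, highest on plate 707 as Col3a1 was, and its part in the plate differences was not tested.

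**Figure D4:**
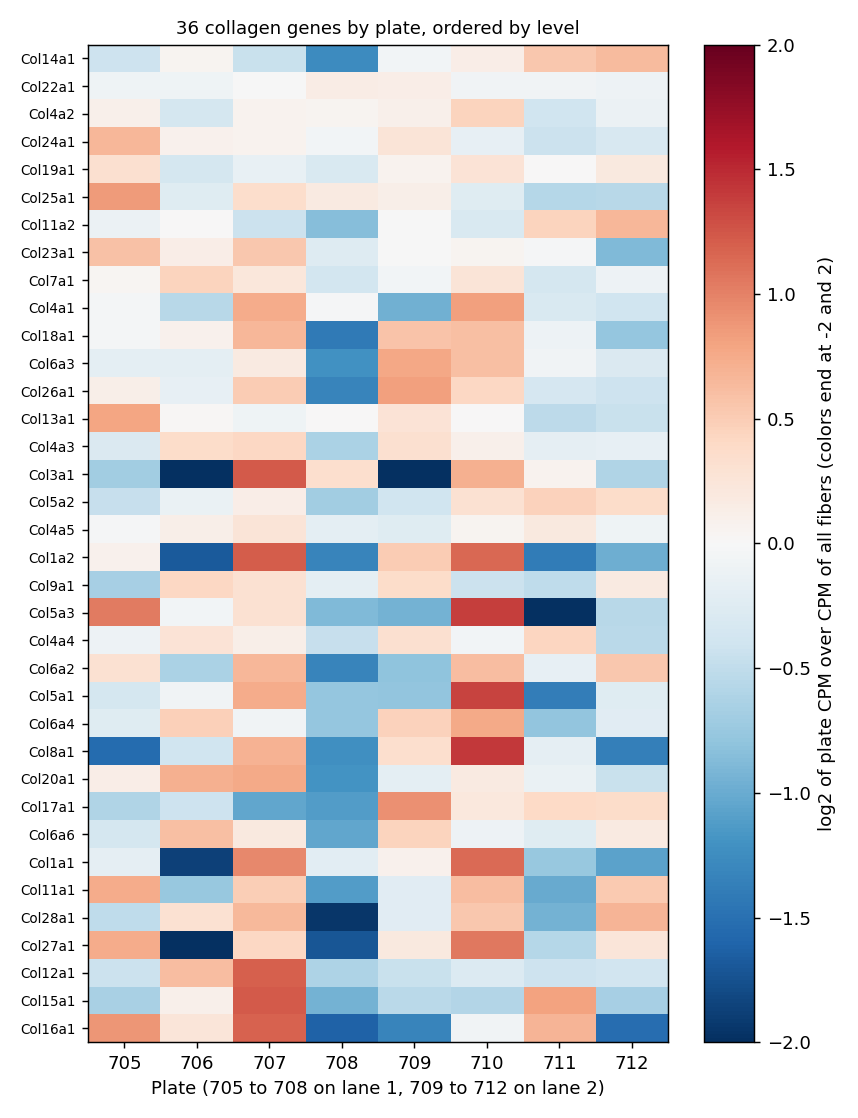
Level of each of the 36 collagen genes (rows) on each of the 8 plates (columns), as the log2 of the plate's CPM over the CPM of all fibers, with colors that end at -2 and 2. Col22a1 is nearly blank across its row, Col14a1 is low on plate 708 and high on plates 711 and 712, and Col3a1 is low on plates 706 and 709 and high on plate 707.

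Fiber classes were compared between the 51 fast 2A and the 117 fast 2X fibers, which lie on all 8 plates, as a description of these fibers. Of 40 collagens, 2 were at least 2-fold higher in fast 2A, Col25a1 and Col23a1, against 1.25% of all genes, and 2 were at least 2-fold lower, Col9a1 and Col4a6, against 4.59%. The median log2 ratio of fast 2A over fast 2X was -0.18 for the collagens and -0.12 for all genes, and 13 of 40 collagens lay above 0. The collagen median was 0.20 without lane 2 and -0.44 without lane 1, where 3 and 9 collagens were 2-fold lower. The sign of the collagen median was thus not shared by both lanes. The shares and medians of all genes by lane are not given here, so these counts are not read as a trait of the collagens. The fibroblast list without Gpx3 was similar in both classes, at 110 CPM in fast 2A and 118 in fast 2X, with fiber ranges from 8.42 to 2936 and from 9.01 to 4392 CPM. The abundant pair showed little difference by class, since Col14a1 had a log2 ratio of 0.04 and Col22a1 one of -0.13. Col3a1 had -0.15, with 0.65 in lane 1 and -2.09 in lane 2, so its direction differed between lanes.

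Col25a1, a transmembrane collagen, stood at 75.5 CPM in fast 2A and 31.7 in fast 2X fibers, a log2 ratio of 1.25 (1.13 to 1.38), with fiber medians of 50.4 and 24.2 CPM. It was higher in fast 2A on 8 of 8 plates, with log2 ratios from 0.29 to 2.57. Col23a1, another transmembrane collagen, stood at 69.0 and 26.8 CPM, a log2 ratio of 1.36 (1.23 to 1.50), with fiber medians of 54.1 and 17.6 CPM. It was found in 100% of fast 2A and 87.2% of fast 2X fibers and was higher on 7 of 8 plates, with plate 710, which held 2 fast 2A fibers, at -0.53. Fibers of the classes overlapped for both genes. The same fast 2A fiber on plate 708, with 424710 UMIs, held the most UMIs of both, 115 of Col25a1 and 99 of Col23a1, and without it the log2 ratios were 1.11 and 1.23. With each fiber weighted equally both ratios fell to 0.85 on the log2 scale, under 2-fold, and by lane they were 1.49 and 0.80 for Col25a1 and 1.48 and 1.15 for Col23a1. The rank correlation of the pair over fibers was 0.37, and 0.35 within fast 2A and 0.19 within fast 2X.

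The sequences before the RefSeq starts of these genes and of Col9a1 are shown because these 3 had the largest ratios of summed UMIs among collagens with at least 200 UMIs, with the same letters in capitals. With each fiber weighted equally the log2 ratios of Col12a1 (-1.23), Col8a1 (-1.19), Col7a1 (-0.99) and Col1a2 (-0.93) were larger in size than those of Col25a1 and Col23a1. The Col25a1 window is chr3:130180595-130180844, inside the longer GENCODE gene at chr3:130131501-130599877. The Col23a1 window is chr11:51289670-51289919, before a gene at chr11:51289920-51583918. The Col9a1 window is chr1:24177360-24177609, one of 2 in the table, before a gene at chr1:24177610-24252684. All are on the plus strand of GRCm38.p6.

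Col25a1: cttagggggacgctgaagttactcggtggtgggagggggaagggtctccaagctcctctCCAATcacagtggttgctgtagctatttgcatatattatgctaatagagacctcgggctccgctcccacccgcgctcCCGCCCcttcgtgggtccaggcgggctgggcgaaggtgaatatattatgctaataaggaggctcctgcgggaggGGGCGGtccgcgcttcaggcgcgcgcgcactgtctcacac

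Col23a1: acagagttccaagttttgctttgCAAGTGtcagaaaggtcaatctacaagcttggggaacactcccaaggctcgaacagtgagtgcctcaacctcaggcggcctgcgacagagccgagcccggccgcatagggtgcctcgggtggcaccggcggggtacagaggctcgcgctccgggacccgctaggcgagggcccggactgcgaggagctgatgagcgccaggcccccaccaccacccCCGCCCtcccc

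Col9a1: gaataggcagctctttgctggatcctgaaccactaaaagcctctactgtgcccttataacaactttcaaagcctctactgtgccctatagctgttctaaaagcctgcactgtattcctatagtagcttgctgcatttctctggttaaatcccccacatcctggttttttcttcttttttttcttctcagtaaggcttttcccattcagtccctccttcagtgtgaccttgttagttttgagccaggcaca

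The Col25a1 window holds 1 CCAAT, 191 bases before the start, a motif present in 33.8% of all promoters of this length and in 13 of 35 collagens (37.1%). The Col23a1 window holds 1 CANNTG, 227 bases before the start. GGGCGG is in both, 2 times for Col25a1 and 1 time for Col23a1, and it is present in 32.7% of all promoters and in 21 of 35 collagens. The Col9a1 window shown holds none of the 4 motifs, while its other window, chr1:24194953-24195202, holds 1 CCAAT and 1 CANNTG. The MEF2-type pattern searched besides, CTA then any 4 bases then TAG, is in 3.20% of all promoters and in none of these windows.

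Col9a1, a chain of the fibril-associated type IX collagen, ran the other way, with 3.44 CPM in fast 2A and 14.6 in fast 2X fibers, 4.23-fold lower, at a log2 ratio of -2.08 (-2.58 to -1.62). It was found in 47.1% of fast 2A and 76.1% of fast 2X fibers and was lower on 8 of 8 plates, with log2 ratios from -3.99 to -1.61. Its partner chains Col9a2 and Col9a3 had 93 and 57 UMIs and lay under the other-organ floor, so type IX collagen was counted through a single chain gene. Col7a1 stood at 17.5 CPM in fast 2A and 33.9 in fast 2X (log2 -0.96, -1.17 to -0.74) and was lower on 8 of 8 plates, just short of 2-fold. Col11a2 stood at 27.4 and 47.7 CPM (log2 -0.80, -0.97 to -0.63) and was lower on 7 of 8. Col24a1 was higher in fast 2A on 8 of 8 plates at a log2 ratio of 0.50 (0.37 to 0.63). Col4a6, with 181 UMIs, had -1.25 (-1.996 to -0.569) and was lower on 7 of 8 plates.

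The class is cut from a continuous measure, and many fibers carried both Myh1 and Myh2, so levels were also read by the Myh2 share of the sum of Myh1 and Myh2 in 5 steps of 20 points, which held 48, 60, 18, 29 and 16 fibers. Col25a1 stood at 26.3, 41.3, 49.2, 54.7 and 126 CPM from the lowest to the highest step, and Col23a1 at 21.0, 38.8, 46.2, 49.4 and 109. Without the leading fiber the last step was 109 CPM for Col25a1 and 93.4 for Col23a1. Col9a1 fell along the same steps at 16.4, 12.8, 5.27, 3.54 and 2.80 CPM. Each of these 3 genes changed in one direction over all 5 steps, whereas Col7a1 at 32.0, 36.5, 28.6, 16.3 and 15.5 CPM and Col11a2 at 51.5, 44.6, 25.1, 29.0 and 23.9 did not. Col24a1 ran from 41.6 through 42.2, 45.4 and 60.5 to 61.1 CPM, a smaller climb that was also in one direction.

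**Figure D5:**
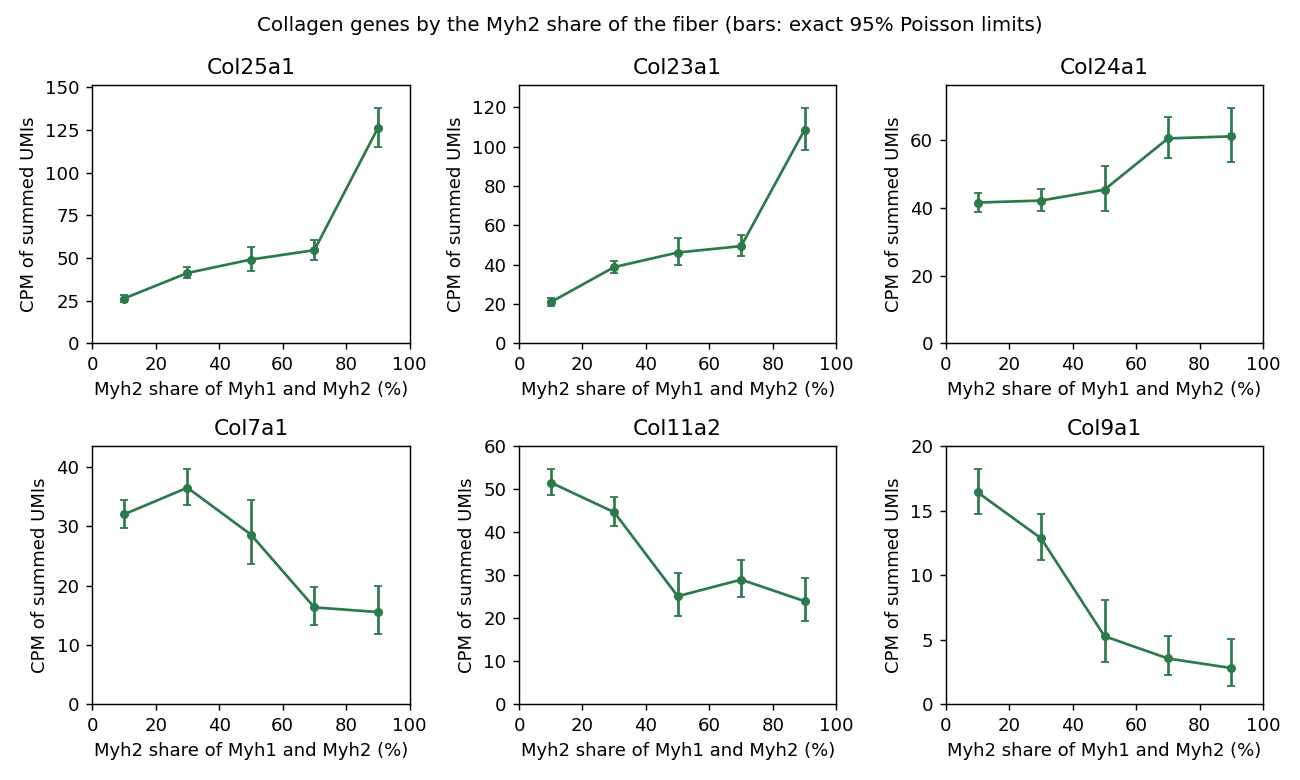
Level of 6 collagen genes (y axis, CPM of summed UMIs, with exact 95% Poisson limits) in fibers grouped by the Myh2 share of Myh1 plus Myh2 (x axis, steps of 20 points). Col25a1 climbs from 26.3 to 126 CPM and Col23a1 from 21.0 to 109, Col9a1 falls from 16.4 to 2.80, and the limits cover counting error only.

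The 3 fibers of the rare classes were too few to describe a class. The slow fiber on plate 707 had 203 CPM of Col25a1, 87.7 of Col23a1 and 4.18 of Col9a1. The slow fiber on plate 709 had 69.6, 248 and 0 CPM, and the fast 2B fiber 93.4, 226 and 3.89. All 3 lay above the fast 2A level for Col23a1 and at or under 4.18 CPM for Col9a1, at depths of 478806, 100629 and 257020 UMIs.

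Several collagens had larger ratios with the markers of cells other than fibroblasts. When marker-high and marker-low fibers were set by each of 11 marker lists in turn, using the fibroblast list without Gpx3, Col3a1 and Col1a2 had their largest log2 ratio with fibroblast markers, 3.94 and 3.55. Col8a1, a short-chain network collagen, had 3.41 with Schwann cell markers and 2.35 with fibroblast markers, and Col18a1 had 2.18 and 1.55. Col6a3 had 1.84 with endothelial markers and 1.19 with fibroblast markers, Col26a1 had 1.55 and 1.05, and Col23a1 had 1.04 and 0.48. The other-organ genes, 1 of the 11 lists, gave the largest ratio of any list for Col19a1 and Col6a6. These were 0.73 and 1.62, against 0.27 and 1.38 with fibroblast markers. With the same list Col8a1 had 0.68, Col18a1 1.17, Col6a3 0.57, Col26a1 0.81 and Col23a1 0.52. The groups share fibers between lists, so these ratios are not separate measurements. Values of all genes for each list are not given here, and the source of the RNA was not tested. Against the myofiber markers Col3a1 had -3.30 and Col1a2 -4.02. Of the even collagens, Col14a1 had -0.59 and Col19a1 -0.37, while Col22a1 had 0.30 and Col24a1 0.16. Col23a1 had -1.08, Col25a1 -0.79 and Col11a2 -0.35, while Col9a1 had 0.41 and Col7a1 0.54, the latter with 1.12 for neuromuscular junction genes.

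The machinery that makes, exports and cuts collagen was described from 7 lists of genes outside the 44. The marker-high and marker-low fibers are again those of the fibroblast list without Gpx3. Each count is to be read against the 26.7% of all genes that were 2-fold higher in them. Of the enzymes that modify the chains, 3 of 12 tested were at least 2-fold higher in marker-high fibers, the hydroxylase genes Plod2 and P3h2 at log2 4.26 and 1.80 and the glycosyltransferase gene Colgalt2 at 2.32, and none differed 2-fold by fiber class. The most abundant of them, the prolyl hydroxylase subunit genes P4hb at 113 CPM, P4ha1 at 36.9 and P4ha2 at 26.5, were not called. Of 8 genes of folding and export, the collagen chaperone gene Serpinh1 (log2 1.42), Fkbp10 (2.09) and Creb3l1 (2.76) were higher, while Sec23a at 94.9 CPM and Mia3 at 73.8, both of vesicle export, and Tmem38b at 72.0, an ion channel gene of the endoplasmic reticulum, were not called. The counts of both lists lie near the share of all genes.

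Of 11 genes of cleavage and cross-linking 9 were higher in marker-high fibers, with a median log2 ratio of 2.04, among them the procollagen proteinase genes Adamts2 (1.22), Adamts14 (2.12), Bmp1, Tll1 (each 2.18) and Tll2 (2.04), the enhancer genes Pcolce (2.59) and Pcolce2 (1.74), and the lysyl oxidase genes Loxl3 (1.98) and Lox, which is itself on the fibroblast list. Loxl1, the most abundant at 24.7 CPM, was not called. All 9 interstitial partners tested were higher, with a median of 2.23, namely Sparc (1.26), the fibronectin gene Fn1 (3.38), the elastin gene Eln (1.85), Tnxb (2.23), Tnc (2.10), Bgn (2.89), Thbs1 (5.25), Prelp (1.92) and Aspn (3.98).

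Of 11 basement membrane partners 4 were higher, again against 26.7% of all genes, the laminin genes Lama4 (2.26) and Lama5 (1.11) and the nidogen genes Nid1 (2.10) and Nid2 (2.75). The abundant members, the laminin chains of the muscle fiber Lama2 at 348 CPM and Lamb2 at 175, and the dystroglycan gene Dag1 at 219, were not called. Of 6 receptor genes 2 were higher, the integrin genes Itga2 (2.26) and Itga11 (1.39), and Itgb1 at 271 CPM, Ddr2 at 43.8 and Ddr1 at 27.5 were not called. Of 6 degradation genes Timp2 (1.40), Timp3 (2.51), Mmp14 (2.88) and Mmp2, which is on the fibroblast list, were higher and Mmp9 was lower (-1.22), while the collagen uptake receptor gene Mrc2 at 20.3 CPM was not called. By fiber class, Lox (log2 -3.04), Sparc (-1.11), Thbs1 (-1.35), Timp2 (-1.07) and Fkbp14 (-1.07) were lower in fast 2A, 5 of 63 genes tested against 4.59% of all genes, and no gene of the 7 lists was 2-fold higher, against 1.25%.

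The 592 cells left out for few genes or high mitochondrial share held 15593835 UMIs, with a median of 16032 per cell, and were read only against the kept fibers, since the rule that parted them also sets their depth. Of 36 collagens, 5 were at least 2-fold higher in them, against 2.39% of all genes, and 5 at least 2-fold lower, against 43.5%. The median log2 ratio was 0.21 for the collagens and -0.87 for all genes. Col19a1 stood at 161 CPM against 45.0 (3.58-fold higher), in 438 cells, with the 10 leading cells holding 11.3% of its UMIs there. Col4a1 stood at 84.4 against 28.0 CPM (3.01-fold) and Col1a2 at 34.8 against 12.2 (2.87-fold), and Col16a1 and Col20a1 were the other 2. The lower ones were Col14a1 at 102 against 460 CPM (4.52-fold), Col22a1 at 42.7 against 102 (2.39-fold), Col24a1, Col11a2 and Col7a1. None of these lower collagens was among the 25 of 40 called higher in marker-high fibers without Gpx3, a call made for 26.7% of all genes. All genes together also had a median below 0 in the cells left out, and the overlap was not tested.

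The 8 collagens with under 200 UMIs complete the set. Col4a6 (181), Col6a1 (177), Col6a5 (161) and Col8a2 (120) had at least 100 UMIs and entered the ratios above. Col9a2 (93), Col9a3 (57), Col2a1 (14) and Col10a1 (2) did not. Col8a2, Col9a2, Col9a3, Col2a1 and Col10a1 lay at or below the highest other-organ gene and are not separable from background here. Col10a1, the hypertrophic cartilage chain, lies within Nt5dc1, which had 916 UMIs, so its 2 UMIs cannot be assigned, and Col18a1 and Slc19a1 (274 UMIs) also overlap.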

How the data were processed

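Single myofibers of the FDB were measured by mcSCRB-seq, a plate method that tags each captured transcript with a UMI. The authors deposited 1 table of whole UMI counts per gene and cell, with other lines that describe each cell, and per the labels they used STAR 2.5.4b and featureCounts with the GRCm38 build, with Cell Ranger 3.1.0 also named. The study's methods name the counting program zUMIs, run at default settings, and do not state whether intron reads or strand entered the counts. The deposited counts of the kept fibers were used as they stand.

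Cells with more than 5000 genes and less than 20% of counts in mt- genes were kept. Cells were sorted singly into wells, and no doublet caller was run. Levels are summed UMIs over summed totals (CPM) with exact 95% Poisson limits, for ratios the exact limits were binomial, given both totals, and a fiber with at least 1 UMI counted as positive. A ratio was called at 2-fold with limits excluding equality, for genes with at least 100 UMIs. Marker-high and marker-low fibers are the upper and lower 42 and 43 of 171. The spread between fibers was estimated for genes with at least 200 UMIs. Calculations used Python 3.11.15, numpy 2.4.6, scipy 1.17.1 and pandas 2.3.3, and were tested on simulated data. Gene positions are from GENCODE and promoters from RefSeq. Collagens with at least 200 UMIs were all named, as were the 5 genes most like each collagen sum and, for each list, the 3 most abundant and any called gene. The collagens and the gene lists were chosen with earlier results of these data known. Left out: any test between animals, because both samples are lanes with no separate animals named.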

Additional observations from a re-analysis of the deposited data

How the results depend on the processing

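No paired analysis was possible because the series has 1 group, whose 2 samples are sequencing lanes. The number of collagens found in 50% or more of the fibers, 32, was 17 when 2 UMIs were asked for and 9 after thinning, an alternative chosen after seeing the data. The summed collagen level of 1184 CPM was 1207 with ribosomal genes left out of the mitochondrial share, 1263 as a mean over fibers, and 1035 to 1324 with 1 lane left out. Thinning gave 26 uneven and 1 even collagen in place of 12 and 4, and with 1 lane left out the even ones numbered 4 to 8. By fiber class, a mean over fibers gave 0 collagens higher in fast 2A and 4 lower in place of 2 and 2, a minimum of 20 UMIs gave 4 lower, and leaving out 1 lane gave 1 to 3 higher and 3 to 9 lower. The shares of all genes under these class alternatives, and their medians by lane, are not given here. The median log2 ratio of fast 2A over fast 2X, -0.18, reversed to 0.20 without lane 2 and was -0.44 without lane 1. The 23 collagens called for the fibroblast markers, with a median log2 ratio of 1.16, were 25 and 1.26 without Gpx3, and against these 9 and 0.70 between the upper and lower parts of each plate, also chosen after seeing the data, which takes in all fibers rather than the extremes. Of the other alternatives for these counts and medians, 52 stayed within the bounds set for them, among them the fibroblast count with larger groups of fibers (19), and without Gpx3 and the 5 leading fibers (19). For these counts of 19 the shares of all genes are not given here either. For single genes, 200 alternatives stayed within those bounds and 144 moved, most of them with 1 lane left out. Single-gene levels moved in 85 alternatives and stayed in 59, while single-gene ratios moved in 59 and stayed in 141. The bounds themselves are not given here. The causes were not tested. Depth limits the rarer chains, many of whose fiber medians are 0.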
